A study of Mus musculus with 12 samples.

Results

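The MHC and antigen presentation genes considered here were 31 mouse genes picked by name from the gene-level count table, which held 49671 gene IDs. Sorted by role, they were 12 class I heavy chains, beta-2 microglobulin, 5 genes of peptide transport and loading, 5 immunoproteasome and PA28 subunits, 2 class transactivators and 6 genes of class II chains and loading. All 31 had a row in the table. Of these, 25 had enough reads to be tested among 15271 genes. H2-Q1, H2-Q2, Ciita, H2-Aa, H2-Ab1 and H2-Eb1 were not tested.

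RNA-seq was run on 12 libraries of ImPSC-1, a mouse pancreatic stellate cell line labelled as pancreatic mesenchymal cells, with 3 libraries in each of 4 derived lines. shCtrl carried a control hairpin and shKitl a hairpin against Kitl. Egfp_OE overexpressed Egfp and Kitl_OE overexpressed Kitl. The study asked what Kitl, which encodes the growth factor that binds the KIT receptor, does within the pancreatic mesenchymal cells that make it. Every line was kept in the same serum-containing medium, and none of the labels names an interferon treatment. The labels do not give the mouse strain behind the cell line, the number of clones per line, or whether the replicates were grown separately. The p-values below therefore speak to library-to-library spread, which may be technical.

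Nucleated cells display peptides from their own proteins on MHC class I. The proteasome cuts proteins into peptides, the transporter TAP carries them into the endoplasmic reticulum, ERAP1 trims them, and tapasin helps load them onto a heavy chain paired with beta-2 microglobulin. Interferons raise most of these genes, exchange the catalytic subunits of the constitutive proteasome for those of the immunoproteasome, and act in part through the transactivator NLRC5. Class II molecules present peptides from endocytosed proteins. Their chains depend on CIITA and are found mainly in professional antigen presenting cells, with interferon-gamma able to switch them on in mesenchymal cells.

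Expression is given in CPM, read counts divided by library sizes that were scaled with the TMM factors of edgeR. Library sizes ran from 24979742 to 33517686 counts in genes. Kitl itself stood at 73.5, 73.6 and 76.4 CPM in shCtrl and at 25.1, 25.5 and 30.3 in shKitl. It stood at 125, 114 and 128 CPM in Kitl_OE. Egfp_OE replicates 1 and 3 had 72.5 and 72.3 CPM of Kitl, whereas replicate 2 had 31.8, near the knockdown libraries. That library also stood apart in its share of spike-in reads, 1.35% against 0.446% to 0.684% elsewhere. Its distance to the other Egfp_OE libraries, as a chi-square per degree of freedom over genes, was 321 to 350.1, against 18.2 to 151 for every other pair within a group. Whether this library holds the line its label names was not tested, so results that rest on it are given with and without it.

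Of the 31 genes, 22 lie on mouse chromosome 17 between 33915899 and 37274484 (GRCm38, GENCODE annotation), the MHC and its flanks, and 9 lie elsewhere. Among the latter are B2m on chromosome 2 (122147686 to 122153083, plus strand), Psmb10 and Nlrc5 on chromosome 8, Erap1 on chromosome 13, and Psme1 and Psme2 on chromosome 14. H2-K1 (chromosome 17, 33996017 to 34000347, minus strand) and H2-D1 (chromosome 17, 35262730 to 35267499, plus strand) encode the classical class I heavy chains. The H2-Q, H2-T and H2-M genes encode nonclassical ones, and H2-T10 is annotated as a polymorphic pseudogene. Annotated genes overlapped 20 of the 31, on the opposite strand for every one but Cd74. H2-T10, Tapbp, Nlrc5, H2-DMa and Cd74 were overlapped on their own strand. Psmb9 and Tap1 overlap each other. With the strand setting of the counting unknown, reads of such pairs cannot be told apart. Class I genes are close copies of one another and differ between strains, so reads may have been split among them or lost. Values of single class I genes, H2-K1 and H2-D1 included, and comparisons among them are uncertain to that extent.

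Promoter windows from RefSeq (GRCm38.p6, 250 bases before to 50 after the start) existed for 22 of the 31 genes. They are shown because class I promoters are known to carry an element bound by interferon regulatory factors beside one bound by NF-kappaB. In capitals are matches, on either strand, to an interferon-response core (GAANNGAAA, which reads TTTCNNTTC on the other strand), to its longer repeat (GAAA, any 2 bases, GAAA) and to a kappaB-type pattern (GGGGA, any base, T, any base, CC). The core and the repeat can overlap, as in Psme1. Each stretch is 30 bases long and is read 5′ to 3′ on the strand of its gene. The class I stretches begin 111 bases before the start in H2-K1, 171 in H2-D1, 174 in H2-Q4, 173 in H2-Q6, 134 in H2-Q7, 122 in H2-M3, 211 in H2-T22 and 144 in H2-T23.
H2-K1 (chr17:34000429-34000458, minus strand): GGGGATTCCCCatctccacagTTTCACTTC
H2-D1 (chr17:35262923-35262952, plus strand): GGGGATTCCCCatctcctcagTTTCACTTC
H2-Q4 (chr17:35379443-35379472, plus strand): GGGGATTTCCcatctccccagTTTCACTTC
H2-Q6 (chr17:35424677-35424706, plus strand): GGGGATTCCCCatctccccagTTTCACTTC
H2-Q7 (chr17:35439021-35439050, plus strand): tGGGGATTCCCatctccccagTTTCACTTC
H2-M3 (chr17:37270112-37270141, plus strand): attcccccatttcctctgaggTTTCACTTC
H2-T22 (chr17:36042924-36042953, minus strand): agagtccctaattggcttagTTTCACTTTC
H2-T23 (chr17:36032816-36032845, minus strand): atgaaaagggatcctactgcTTTCTCTTTC
B2m (chr2:122147538-122147567, plus strand): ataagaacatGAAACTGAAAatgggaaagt
Erap1 (chr13:74639839-74639868, plus strand): ccaccttcacTTTCACTTTCggtcccgggc
Psme1 (chr14:55578493-55578522, plus strand): cgagctgtgcTTTCGCTTTCCCTTCccgct

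H2-K1 and H2-D1 differed at 1 of the 30 bases. The kappaB-type match lay 21 bases before the interferon-response core in H2-K1, H2-D1, H2-Q4 and H2-Q6 and 20 bases before it in H2-Q7. The kappaB-type pattern occurred in 5 of the 9 class I windows and in 1.18% of all 32851 windows. GAANNGAAA occurred in 6 of the 9, against 7.52% of all windows, and the longer repeat in another 2, H2-T22 and H2-T23, against 3.44%. Over all 22 genes with a window, GAANNGAAA occurred in 7, the longer repeat in 5 and the kappaB-type pattern in 5. Also searched were a GAS pattern (TTCNNNGAA), in 1 of the 9 against 8.3% of all windows, and a Y box (CTGATTGG), in 5 of the 9 against 4.1%. These matches describe letters only, and the 9 class I windows are related sequences. Whether the letters bear on the levels below was not tested.

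Levels of different genes can be compared only per length, in the deposited TPM values, a unit that is scaled by gene length. B2m was the most abundant member, at 3524, 1623 and 1240 TPM in shCtrl replicates 1 to 3. Heavy chains summed to 260 to 1026 TPM in shCtrl, 1328 to 3345 in shKitl, 288 to 2009 in Egfp_OE and 231 to 290.2 in Kitl_OE. The immunoproteasome and PA28 genes summed to 143 to 413 TPM in shCtrl, 593 to 858 in shKitl, 181 to 930 in Egfp_OE and 129 to 150.1 in Kitl_OE. On both sums the 3 Kitl_OE libraries lay close together while the control lines spread widely. In shKitl, every library exceeded every shCtrl library on both sums.

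**Figure D1:**
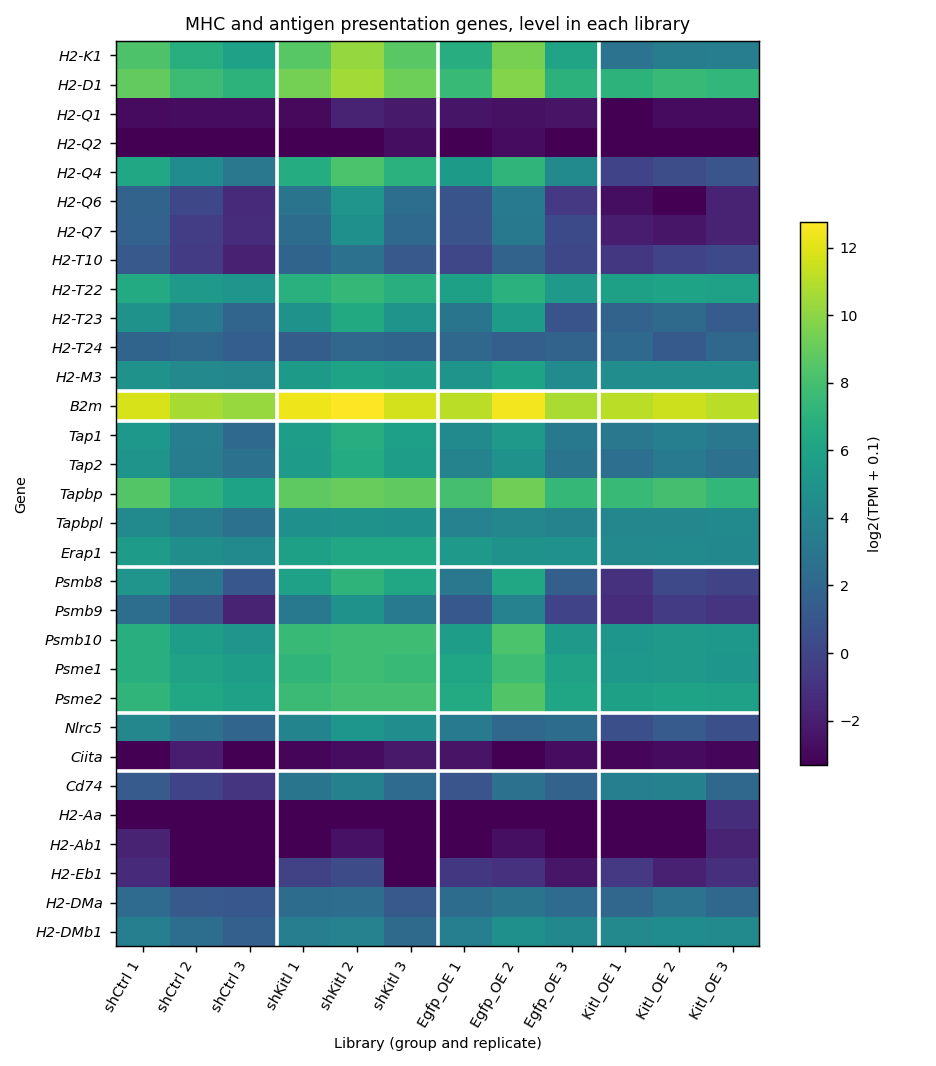
Level of each of the 31 genes (rows, grouped by role, white lines between groups) in each of the 12 libraries (columns), as log2(TPM + 0.1). B2m is the brightest row, Ciita and the class II chains H2-Aa, H2-Ab1 and H2-Eb1 are near the bottom of the scale throughout, and Egfp_OE replicate 2 is the brightest Egfp_OE column for 22 of the 25 tested genes by CPM.

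Kitl overexpression against Egfp overexpression asked how these genes stood when Kitl was raised. With all 12 libraries, 10 of the 25 tested genes fell in Kitl_OE and none rose (edgeR quasi-likelihood test, Benjamini-Hochberg adjusted p under 0.05 over all genes tested). The fallen genes were the class I heavy chains H2-K1, H2-Q4, H2-Q6 and H2-Q7, the peptide-trimming enzyme Erap1, the immunoproteasome subunits Psmb8 and Psmb9, the proteasome activator subunits Psme1 and Psme2, and Nlrc5. Of all genes tested, 18.9% were called lower and 15.4% higher in the same comparison, and the median log2 fold change was -1.44 over the 25 genes and -0.07 over all genes. Without Egfp_OE replicate 2, 5 of the 25 tested genes were called lower, all among those 10, namely H2-K1, H2-Q4, H2-Q7, Psme1 and Nlrc5. Cd74 was then called higher. The background was then 19.6% lower and 19.8% higher, so 5 lower of 25 was near the share over all genes. The median over the 25 genes was -0.29. With Kitl_OE replicate 1, 2 or 3 left out, 5, 5 and 6 members were called, all lower, beside 1812, 1908 and 2061 genes called lower over all genes, where 2884 were with all libraries.

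H2-K1 was at 88.0, 822 and 53.2 CPM in Egfp_OE replicates 1 to 3 and at 6.73, 9.78 and 10.2 CPM in Kitl_OE. For H2-K1 every Kitl_OE library was below every Egfp_OE library. That order held for 9 of the 25 tested members and for 3915 of the 15271 genes tested, with the reverse order in 3801. Without Egfp_OE replicate 2 it held for 9 of the 25 members and for 5605 of 15622 genes, near the share over all genes. The reverse order then held for 4 members and 5449 genes. Every Kitl_OE library was also below the lowest shCtrl library of H2-K1, at 55.1 CPM. The log2 fold change was -5.17, a level 36.0-fold lower (SE 1.05, n = 3 each, edgeR adjusted p = 0.00333), and -2.97 (SE 0.63, adjusted p = 0.00536) without Egfp_OE replicate 2. It passed the threshold in all 20 alternative analyses that gave it an adjusted p (DESeq2 gave none), with log2 fold changes from -5.67 to -2.97.

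H2-Q4, a nonclassical heavy chain from the Q region, was at 36.8, 171 and 15.1 CPM in Egfp_OE and at 0.817, 1.14 and 1.54 CPM in Kitl_OE. Its log2 fold change was -5.99 (SE 1.06, edgeR adjusted p = 0.00148) and -4.45 (SE 0.85, adjusted p = 0.00312) without Egfp_OE replicate 2. Like H2-K1, it was lower in Kitl_OE than in any library of the other 3 lines. H2-Q7, which encodes the glycolipid-anchored Qa-2 antigen, was at 2.29, 16.7 and 1.48 CPM in Egfp_OE and at 0.233, 0.147 and 0.273 in Kitl_OE. Its log2 fold change was -4.93 (SE 1.25, edgeR adjusted p = 0.0108) with all libraries and -3.07 (SE 1.07, adjusted p = 0.0441) without Egfp_OE replicate 2. H2-Q6 rested on few reads, with 1, 0 and 4 counts in the Kitl_OE libraries against 41, 214 and 10 in Egfp_OE. Its adjusted p was 0.0144 with all libraries and 0.0626 without Egfp_OE replicate 2.

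H2-D1 is the other classical heavy chain. It was at 163, 1000.2 and 101 CPM in Egfp_OE and at 130, 161 and 136 CPM in Kitl_OE, so the Kitl_OE libraries lay inside the Egfp_OE range. The log2 fold change was -1.57 (SE 0.73, edgeR adjusted p = 0.117) with all libraries and 0.12 (SE 0.46, adjusted p = 0.858) without Egfp_OE replicate 2. DESeq2 called it lower with all libraries, at adjusted p = 0.0462. H2-T22, H2-T23, H2-T10, H2-T24 and H2-M3 likewise overlapped between the lines with all libraries and were not called by edgeR. Without Egfp_OE replicate 2, H2-T22 was higher in every Kitl_OE library, at 65.7 to 74.8 CPM against 43.3 and 64.8 (log2 fold change 0.39, edgeR adjusted p = 0.363). H2-T23, which encodes Qa-1, the ligand of NKG2A receptors on natural killer cells, had a log2 fold change of -2.72 (adjusted p = 0.0720) with all libraries and -0.32 (adjusted p = 0.792) without that library, and DESeq2 called it lower with all libraries at adjusted p = 0.0364.

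The make-up of class I RNA within a library does not depend on scaling between libraries. H2-K1 took 3.01%, 3.78% and 4.53% of summed class I TPM in the 3 Kitl_OE libraries, and 23% to 35.8% in the other 9, Egfp_OE replicate 2 included. H2-D1 took 58.6%, 62.8% and 60.6% in Kitl_OE and 43.4% to 51.7% elsewhere. H2-Q4 took 0.368% to 0.682% in Kitl_OE and 3.24% to 9.70% elsewhere, and H2-T22 took 22.1% to 24.1% against 5.09% to 14.6%. None of these 4 shares overlapped between Kitl_OE and any other line, although 3 libraries against 3 cannot give an exact two-sided permutation p below 0.1. The shares of a library add up to the whole, so the 4 are not separate results, and a lower H2-K1 share raises the others. In CPM and with all libraries, H2-D1 and H2-T22 in Kitl_OE lay inside the Egfp_OE range, H2-T22 at 65.7 to 74.8 against 43.3 to 182.

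**Figure D2:**
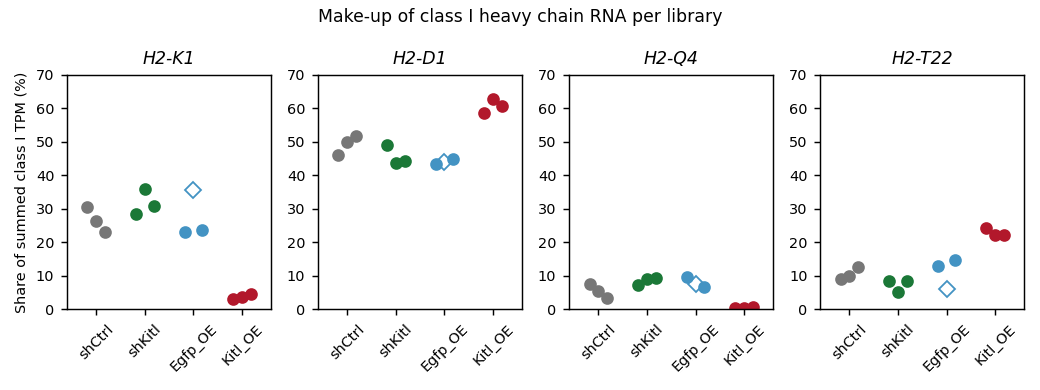
Share of summed class I heavy chain TPM (percent, vertical axis) taken by H2-K1, H2-D1, H2-Q4 and H2-T22 in each library, by line; points are libraries and the open diamond is Egfp_OE replicate 2. In Kitl_OE the H2-K1 points lie at 3.01% to 4.53%, below the 23% of the lowest other library, and the H2-D1 points lie above all others.

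B2m, the light chain that every class I heavy chain needs, was at 627, 2181.7 and 439 CPM in Egfp_OE and at 704, 886 and 618 CPM in Kitl_OE. It was not called, with a log2 fold change of -0.56 (SE 0.54, edgeR adjusted p = 0.454), and 0.48 (adjusted p = 0.350) without Egfp_OE replicate 2. Among the peptide transport and loading genes, Tap1 and Tap2 (which together form the peptide transporter), Tapbp (tapasin) and its homologue Tapbpl overlapped between the lines with all libraries, and edgeR called none of them. DESeq2 called Tap2 lower, at adjusted p = 0.0416. Tap1 was at 38.0, 98.2 and 15 CPM in Egfp_OE and at 17.1, 23.3 and 16 in Kitl_OE. Erap1 was at 52.1, 50.7 and 34.4 CPM in Egfp_OE and at 28.7, 28.5 and 24.3 in Kitl_OE, a log2 fold change of -0.75 (SE 0.24, edgeR adjusted p = 0.0295). Without Egfp_OE replicate 2 its log2 fold change was -0.66 and its adjusted p 0.0582. Egfp_OE replicate 2 was not the highest library of its line for this gene.

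The immunoproteasome replaces the 3 catalytic subunits of the standard proteasome with PSMB8, PSMB9 and PSMB10. Psmb8 was at 7.64, 95.1 and 2.35 CPM in Egfp_OE and at 0.389, 0.989 and 0.819 CPM in Kitl_OE, with no overlap. Its log2 fold change was -5.56 (SE 1.39, edgeR adjusted p = 0.0101), and -2.75 (SE 0.99, adjusted p = 0.0519) without Egfp_OE replicate 2. Psmb9 was at 2.52, 22.3 and 0.940 CPM in Egfp_OE and at 0.428, 0.769 and 0.546 in Kitl_OE, with adjusted p of 0.0310 and, without that library, 0.248. For Psmb10 the 2 lines overlapped, at 28.5, 217 and 21.7 CPM against 21.7, 24.5 and 21.6, and it was not called (log2 fold change -1.98, adjusted p = 0.0525, and -0.14 without that library).

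Psme1 and Psme2 encode the alpha and beta subunits of the PA28 cap, which opens the proteasome and is raised by interferon-gamma. Psme1 was at 54.0, 212 and 41.5 CPM in Egfp_OE and at 31, 31.3 and 25.6 in Kitl_OE. It fell both with all libraries (log2 fold change -1.81, SE 0.51, edgeR adjusted p = 0.0177) and without Egfp_OE replicate 2 (-0.69, SE 0.24, adjusted p = 0.0451). It missed the threshold in 5 of 21 alternative analyses, among them those without any 1 of the Kitl_OE libraries. Psme2 was called with all libraries, at edgeR adjusted p = 0.0456, and not without that library, at 0.426. It missed the threshold in 15 of 21 alternative analyses.

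Set against the constitutive subunit it replaces, on the TPM scale, Psmb8 stood at 0.00191 to 0.00502 of Psmb5 in Kitl_OE and at 0.00541 to 0.106 in shCtrl. The ratio was 0.180 to 0.495 in shKitl. It was 0.0380, 0.188 and 0.0113 in the Egfp_OE libraries. Psmb9 stood at 0.00171 to 0.00315 of Psmb6 in Kitl_OE, overlapping 0.000731 to 0.0195 in shCtrl and 0.00252 to 0.0234 in Egfp_OE. In shKitl it was at 0.0306 to 0.104. Psmb10 was the most abundant of the 3 relative to its counterpart: it stood at 0.239 to 0.297 of Psmb7 in Kitl_OE and at 1.10 to 1.60 in shKitl. It was at 0.741, 0.333 and 0.231 in shCtrl and at 0.330 and 0.281 in Egfp_OE replicates 1 and 3, so Kitl_OE lay within the control range. Psmb10 thus exceeded Psmb7 in all 3 shKitl libraries and in Egfp_OE replicate 2, at 1.78, and in none of the other 8.

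Nlrc5, the class I transactivator, was at 26.4, 15.9 and 13.1 CPM in Egfp_OE and at 4.44, 6.85 and 4.06 CPM in Kitl_OE. Unlike most members it was not high in Egfp_OE replicate 2, whose level lay between those of the other 2 Egfp_OE libraries. Its log2 fold change was therefore nearly the same with that library (-1.85, SE 0.48, edgeR adjusted p = 0.0120) and without it (-1.94, SE 0.55, adjusted p = 0.0192). H2-K1, H2-Q4 and Nlrc5 were the 3 members called lower, at an adjusted p under 0.05, in every alternative analysis that gave them an adjusted p.

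The class II chains and Ciita were close to silent, whereas Cd74, H2-DMa and H2-DMb1 were detected at low levels. H2-Aa, the class II alpha chain, had counts in 1 of 12 libraries, at 6 reads in Kitl_OE replicate 3, and H2-Ab1 had at most 3 reads in any library. H2-Eb1 had 0 to 12 reads, and Ciita, the class II transactivator, 0 to 6. Cd74, the invariant chain that guards the class II groove, was at 0.830, 4.17 and 1.44 CPM in Egfp_OE and at 6.26, 6.45 and 1.91 in Kitl_OE. With all libraries it was not called (log2 fold change 1.19, edgeR adjusted p = 0.198). Without Egfp_OE replicate 2 it was called higher (2.12, SE 0.69, adjusted p = 0.0325). H2-DMa and H2-DMb1, which encode the peptide exchange factor DM, were at 1.14 to 5.17 and 1.53 to 17.3 CPM over the 12 libraries and were not called.

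**Figure D3:**
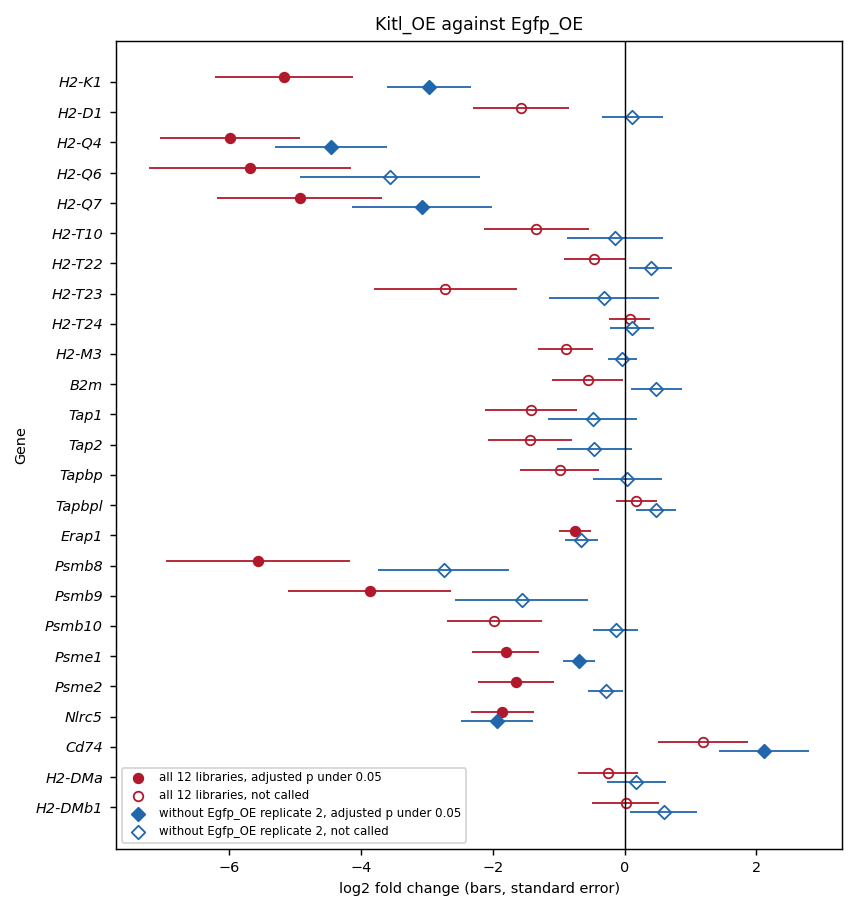
Log2 fold change of Kitl_OE against Egfp_OE (horizontal axis, bars are standard errors) for the 25 tested genes, with all 12 libraries (red circles) and without Egfp_OE replicate 2 (blue diamonds); filled symbols have an edgeR adjusted p under 0.05. H2-K1, H2-Q4, H2-Q7, Psme1 and Nlrc5 are filled in both fits, and most other members move toward 0 once that library is left out.

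Kitl knockdown against the control hairpin asked how the same genes stood when Kitl was lowered. All but 1 of the 25 tested genes had a positive log2 fold change in shKitl, with a median of 1.73 against 0.05 over all genes, but none was called at an adjusted p under 0.05. In that comparison edgeR called 0 of all genes tested (0% as background), the targeted gene Kitl included (log2 fold change -1.46, adjusted p = 0.121). At an unadjusted p under 0.05, 21 members were apart, all higher, against 11.1% of all genes higher. DESeq2 called 4 members higher, Tap2, Tapbpl, Erap1 and Cd74, where it called 2.13% of all genes higher, and limma on log2(TPM + 1) called none. Without shCtrl replicate 1, edgeR called 3 members higher, beside 65 genes in all, and without shKitl replicate 3 it called 1 higher, beside 226 genes in all. In 22 members every shKitl library was above every shCtrl library, against 11% of all genes.

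Members shared an order of the libraries within shCtrl. H2-K1 was at 245, 93.8 and 55.1 CPM in shCtrl replicates 1 to 3 and at 365, 989 and 345 CPM in shKitl. Psmb8 was at 27.0, 7.96 and 1.86 CPM in shCtrl and at 57.3, 124 and 66.6 in shKitl, a log2 fold change of 2.75 (SE 1.16, edgeR adjusted p = 0.291). H2-D1 was at 364, 175 and 122 CPM in shCtrl and at 625, 1190 and 491 in shKitl. In each of these genes shCtrl replicate 1 was the highest of its line and replicate 3 the lowest, without reaching the shKitl range. Of the 25 members, 24 were highest in shCtrl replicate 1 and 24 were lowest in shCtrl replicate 3, where 49.0% and 39.8% of all tested genes were. The labels also give these replicates rising P numbers, P14, P15 and P16, so replicate and P number cannot be told apart within shCtrl.

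Erap1 had the smallest adjusted p of the members. It was at 54.3, 34.1 and 29.6 CPM in shCtrl and at 82.6, 103 and 103 CPM in shKitl, a log2 fold change of 1.29 (SE 0.24, edgeR adjusted p = 0.134). H2-Q6 and H2-Q7 had the largest log2 fold changes, 3.33 (SE 1.16) and 3.17 (SE 1.06). These were 2.15 and 1.91 without shKitl replicate 2, and 4.47 and 4.58 without shCtrl replicate 1. B2m was at 906, 455 and 377 CPM in shCtrl and at 1581, 1889 and 912 in shKitl, so that the lowest shKitl library was just above the highest shCtrl library. Nlrc5 was at 44.6, 18.1 and 11.2 CPM in shCtrl and at 46.9, 91.7 and 66.0 in shKitl, likewise apart by little. Cd74 was at 0.987, 0.394 and 0.212 CPM in shCtrl and at 3.87, 5.91 and 2.20 in shKitl (log2 fold change 2.87, SE 0.75, adjusted p = 0.191). H2-T24, a nonclassical chain, was level, at 2.30, 2.84 and 2.12 CPM against 2.03, 2.66 and 2.54.

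Leaving out Egfp_OE replicate 2, which is not part of this contrast but shares its estimate of gene-wise spread, left the fold changes nearly as they were and narrowed their errors. With it left out, H2-M3, Erap1, Psmb10 and Psme1 rose in shKitl, with log2 fold changes of 1.27, 1.26, 1.70 and 1.32 and edgeR adjusted p of 0.0352, 0.0475, 0.0489 and 0.0409. The background was 0.218% of all genes called higher, and Kitl was then called lower (log2 fold change -1.49, adjusted p = 0.000725). H2-M3 presents formylated peptides. It was at 12.6, 8.79 and 8.77 CPM in shCtrl and at 22.5, 28.8 and 23 in shKitl.

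**Figure D4:**
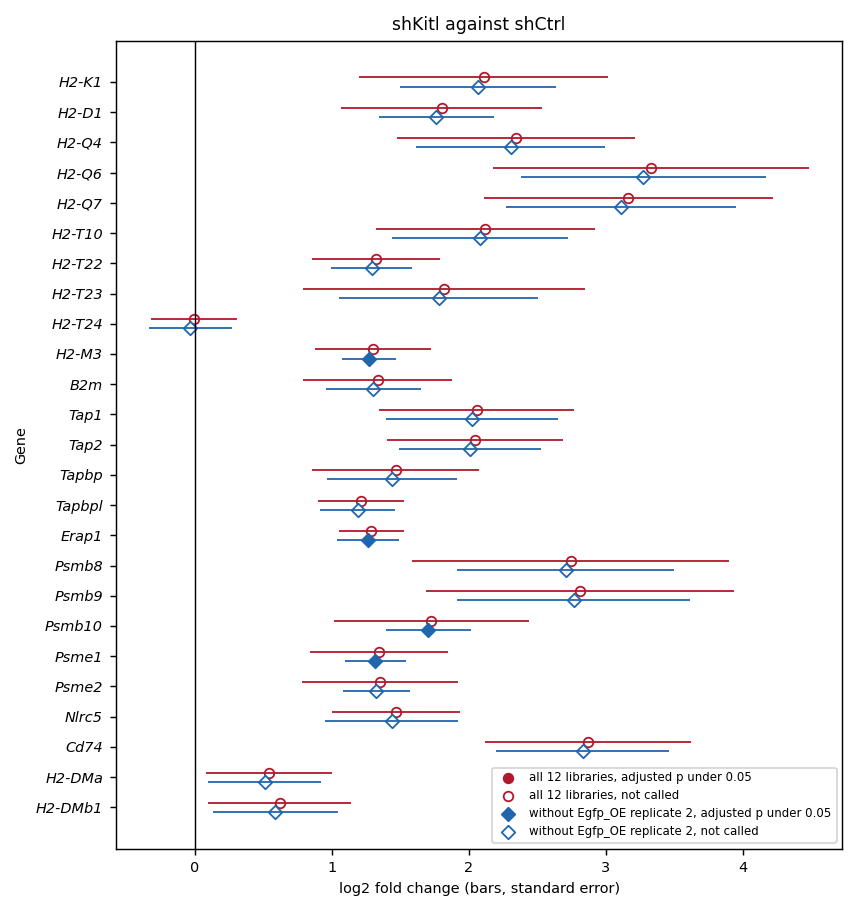
Log2 fold change of shKitl against shCtrl (horizontal axis, bars are standard errors) for the 25 tested genes, with all 12 libraries (red circles) and without Egfp_OE replicate 2 (blue diamonds); filled symbols have an edgeR adjusted p under 0.05. All points but that of H2-T24 lie to the right of 0, no red circle is filled, and H2-M3, Erap1, Psmb10 and Psme1 have filled diamonds.

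The libraries also carry a P number (13 to 20) whose meaning the labels do not state. It runs from P14 to P16 in shCtrl, P13 to P15 in shKitl, P17 to P19 in Egfp_OE and P18 to P20 in Kitl_OE. The lines of each contrast thus overlap in P number without matching fully. shCtrl replicate 1 and shKitl replicate 2 share P14, and shCtrl replicate 2 and shKitl replicate 3 share P15. At these matched numbers H2-K1 went from 245 to 989 and from 93.8 to 345 CPM, and Psmb8 from 27.0 to 124 and from 7.96 to 66.6 CPM. Egfp_OE replicate 2 and Kitl_OE replicate 1 share P18, and Egfp_OE replicate 3 and Kitl_OE replicate 2 share P19. H2-K1 was at 822 against 6.73 CPM at P18 and at 53.2 against 9.78 CPM at P19, and H2-D1 at 1000.2 against 130 and at 101 against 161 CPM. H2-K1 therefore kept its direction at each of the 4 matched numbers, while H2-D1 was lower in Kitl_OE at P18 and higher at P19.

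**Figure D5:**
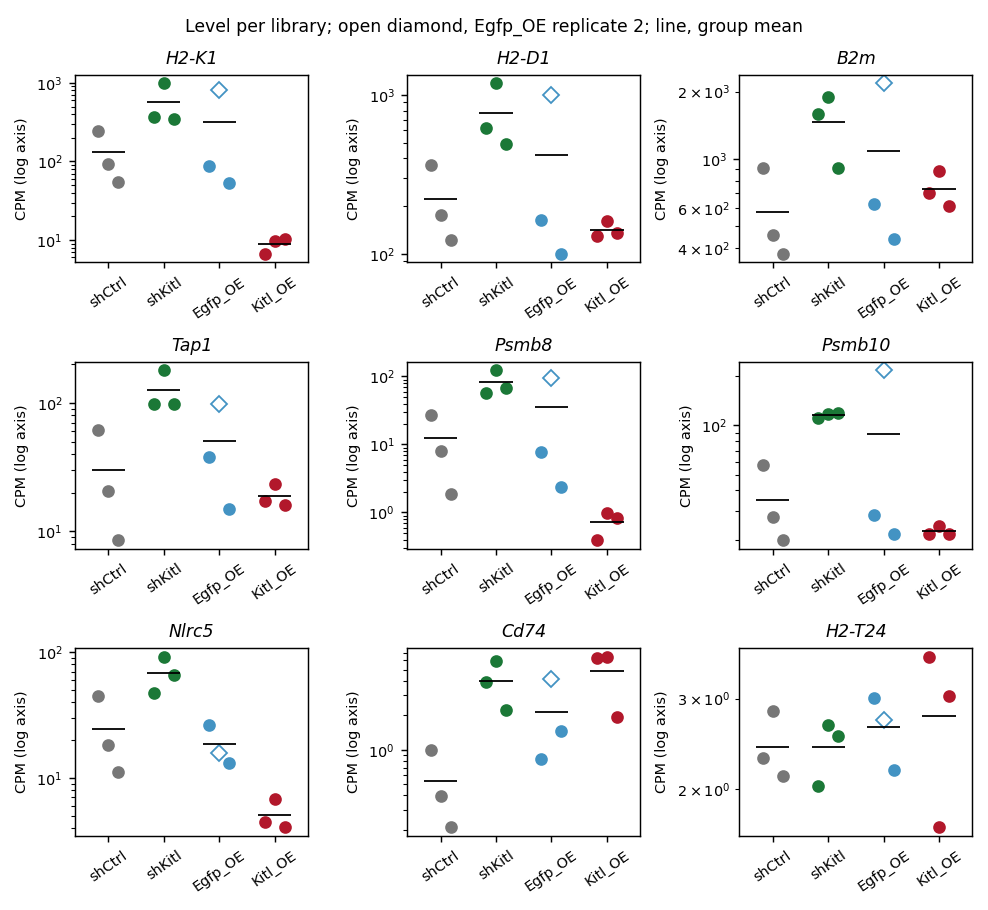
CPM (log axis) of 9 members in each library by line; points are the 3 libraries, black lines are group means, and the open diamond is Egfp_OE replicate 2. The diamond is at or above the shKitl points for B2m and Psmb10 but inside the Egfp_OE range for Nlrc5, and the Kitl_OE points are the lowest for H2-K1, Psmb8 and Nlrc5 but not for H2-D1, B2m or Cd74.

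The 2 contrasts share no library, so their difference could be tested directly. The log2 fold change of Kitl overexpression minus that of knockdown was negative and called for 14 of the 25 members, where 9.88% of all genes were called lower and 4.07% higher. These 14 were H2-K1, H2-Q4, H2-Q6, H2-Q7, H2-M3, Tap1, Tap2, Erap1, Psmb8, Psmb9, Psmb10, Psme1, Psme2 and Nlrc5. Without Egfp_OE replicate 2, 12 of them remained called, beside 11.1% of all genes lower. The count was 8 or 9 with shCtrl replicate 2 or 3, shKitl replicate 2 or any Kitl_OE library left out, beside 936 to 1081 genes called lower over all genes, where 1509 were with all libraries. The difference was -7.28 (SE 1.38, edgeR adjusted p = 0.00569) for H2-K1, -3.37 (SE 1.03, adjusted p = 0.0503) for H2-D1 and -3.32 (SE 0.67, adjusted p = 0.00772) for Nlrc5. Once Egfp_OE replicate 2 was left out it was -5.04 (adjusted p = 0.00408), -1.64 (adjusted p = 0.0873) and -3.37 (adjusted p = 0.0126) in the same order. No class II gene was called in this difference.

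The 2 control lines, Egfp_OE and shCtrl, were not called apart for any member by edgeR, beside 1.25% of all genes in either direction. At an unadjusted p under 0.05, 4 members were higher in Egfp_OE, where 13.8% of all genes were. DESeq2 called Cd74 and H2-DMb1 higher in Egfp_OE, beside 5.57% of all genes. This comparison shares its libraries with both of the others, and the P numbers of the lines do not meet, so line and P number cannot be told apart in it. With all libraries 24 of the 25 log2 fold changes were positive, whereas without Egfp_OE replicate 2 only 10 were, so most members turned sign with that library. H2-K1 went from 1.29 (SE 0.89) to -0.89 (SE 0.63), and Psmb8 from 1.502 to -1.30. Scaling by the spike-in totals, in which that library is also extreme, shifted the median of all genes in this comparison by -0.40 on the log2 scale and in knockdown by -0.11.

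Egfp_OE replicate 2 was the highest library of its line for 22 of the 25 members, and 44.2% of all tested genes were highest there. Erap1, Nlrc5 and H2-T24 were the exceptions. Its Psmb10, at 217 CPM, Psme2, at 256 CPM, and B2m, at 2181.7 CPM, were the highest of all 12 libraries. The 22 members with every shKitl library above shCtrl and above Egfp_OE replicates 1 and 3 were all tested members but H2-T24, H2-DMa and H2-DMb1, where 7.52% of all tested genes had that order. That order leaves out Egfp_OE replicate 2 after it was seen to be high. With that library included, the order held only for Tap2, Tapbpl, Erap1 and Nlrc5 among the 22. It failed for all the rest, such as H2-K1 (822 against 345 CPM in the lowest shKitl library), B2m (2181.7 against 912) and Psmb10 (217 against 110). The share of all tested genes that keep the order with that library was not computed. In 8 members, H2-K1, H2-Q4, H2-Q6, H2-Q7, Erap1, Psmb8, Psme1 and Nlrc5, every Kitl_OE library was below every other library of the series, as it was for 13.8% of all tested genes.

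Neighbouring steps of the pathway were read from lists set by role, and their counts in Kitl_OE stand against the same 18.9% of all genes called lower and 15.4% called higher. Of 16 constitutive proteasome genes, 8 fell in Kitl_OE and none rose, with the largest log2 fold changes in Psmb4 (-1.32), Psma4 (-1.25) and Psmb3 (-1.18). Without Egfp_OE replicate 2, 6 fell, Psma4 at -0.76. Of 9 general folding and translocation genes of the endoplasmic reticulum, only Sec61b was called, lower at -1.002, and without Egfp_OE replicate 2 only Bcap31 was, higher at 0.60. Of 8 cytosolic and endoplasmic reticulum peptidases, Lap3 (-0.68) and Npepps (-0.67) fell. None of 7 tested class II lysosomal processing genes was called with all libraries. In knockdown edgeR called none of the 87 tested genes of these lists and those that follow (17 higher and 1 lower at an unadjusted p under 0.05, 3 higher by DESeq2), and the median log2 fold change was 0.05 in the constitutive proteasome list.

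Among 7 tested class I-like genes outside the member list, Cd1d1, which presents lipids to NKT cells, fell in Kitl_OE (log2 fold change -2.83, edgeR adjusted p = 0.000345), as did the iron regulator Hfe (-1.53, adjusted p = 0.0172), while the protein C receptor Procr rose (0.89, adjusted p = 0.00599). Cd1d1 had a mean of 7.33 CPM in Egfp_OE (SD 1.83) and 1.02 in Kitl_OE (SD 0.262). These 3 calls held without Egfp_OE replicate 2. NKG2D ligands, stress-induced class I relatives seen by natural killer cells, went the other way. Of 4 tested, Ulbp1 (2.65, adjusted p = 0.0105), Raet1e (1.83, adjusted p = 0.000523) and Raet1d (1.45, adjusted p = 0.00127) rose in Kitl_OE and H60b was not called, and the same 3 calls held without that library. Raet1e had a mean of 15.9 CPM in Egfp_OE (SD 1.34) and 56.7 in Kitl_OE (SD 3.92). The Raet1 genes are near-identical copies, so the split of reads between them is uncertain.

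Interferon signalling genes gave 4 calls lower and 1 higher among 17 tested in Kitl_OE. Among the lower ones were Irf7 (log2 fold change -4.80, edgeR adjusted p = 0.0188) and Irf9 (-1.74, adjusted p = 0.0128), transcription factors of the interferon response. Without Egfp_OE replicate 2, Irf7 was not called, at an adjusted p of 0.119, and Irf9 was (-1.34, adjusted p = 0.0443). Irf7 ranged from 19.6 to 754 CPM within Egfp_OE and from 6.01 to 17.2 in Kitl_OE, so the lines did not overlap. Of 13 tested factors of MHC promoters, Relb (-0.89) and Crebbp (-0.45) fell and Nfyb (0.38) rose. Of 6 tested costimulators and checkpoint ligands, Cd274 (PD-L1, -1.38, adjusted p = 0.0249) and Cd276 (-1.13, adjusted p = 0.00474) fell and Tnfsf9 (1.06, adjusted p = 0.00585) rose. Cd274 missed the threshold without Egfp_OE replicate 2, at adjusted p = 0.0610.

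Markers of other cells were checked beside these results. Of 16 blood and antigen presenting cell markers, 3 were tested, and their summed level was 5.43 to 10.103 CPM in shCtrl, 7.88 to 21.0 in shKitl, 5.71 to 6.61 in Egfp_OE and 21.1 to 30.9 in Kitl_OE. Of those 3, the myeloid markers Lyz2 and Csf1r rose in Kitl_OE, from a mean of 0.485 to 10.3 CPM (log2 fold change 4.44, edgeR adjusted p = 0.00461) and from 2.00 to 13.4 CPM (2.73, adjusted p = 0.00171). Cd68 was not called and went the other way, at 1.13 to 2.45 CPM in Kitl_OE against 3.09 to 3.29 in Egfp_OE. Flt3, Ms4a1, Cd3e and Cd8a had no count in any library, and Ptprc had at most 2 in a line. Of 10 stellate and mesenchymal markers 9 were tested, with summed levels from 5045 CPM in Egfp_OE to 24036 CPM in Kitl_OE. Col1a1, Col1a2, Vim and Acta2 rose in Kitl_OE, whereas Pdgfra fell from a mean of 195 to 15.2 CPM and Thy1 from 41.9 to 7.44 CPM. Of 8 mesothelial markers 6 were tested and all 6 rose in Kitl_OE, where they summed to 377 to 631 CPM, against 16.5 to 31.1 in Egfp_OE, 76.4 to 103 in shCtrl and 109 to 189 in shKitl. The part of these marker differences in the class I and Cd74 results was not tested, and in bulk RNA a change in the mixture of cells and a change per cell cannot be told apart.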

How the data were processed

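Poly(A)-selected RNA-seq libraries were made from total RNA of 12 samples, per the labels' protocols. STAR 2.5.2b, featureCounts from Subread 1.5.2 and DESeq2 are named in the submitters' processing notes, which also name GRCm38; these sources do not give the strand setting. The deposited counts are raw whole-number read counts per gene, and the deposited TPM values are named as such per the file headers, with the gene lengths behind them not given. The table's 92 ERCC spike-in entries were kept out of library sizes.

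Genes were filtered with filterByExpr, leaving 15271, and fitted with edgeR 4.0.16 (TMM, quasi-likelihood, 1 coefficient per group, all 12 libraries) in R 4.3.3. Benjamini-Hochberg adjusted p-values cover all genes tested, and calls use 0.05. CPM are counts over TMM-scaled library sizes. DESeq2 1.42.0, limma 3.58.1 (pseudocount of 1 on TPM), other scalings and filters, a replicate block, the P number as a covariate and each of 12 libraries left out were alternatives. The edgeR script was tested on simulated data.

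Gene positions came from GENCODE (GRCm38) by gene ID, with 31 of 31 matched. Promoter sequences came from RefSeq (GRCm38.p6) by symbol. Members, gene lists and the rule for genes named (every member, and up to 3 called genes of largest fold change per other list) were chosen with earlier results of these data known, so no list is independent evidence of its direction. Some genes that this rule names are not reported here. Replicate numbers did not pair the samples: correlations of same-numbered deviations were 0.151, -0.259 and 0.527 in the hairpin lines and 0.0262, 0.204 and 0.169 in the overexpression lines. The depth of 24979742 to 33517686 counts per library limits statements on genes with few reads.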

Additional observations from a re-analysis of the deposited data

How the results depend on the processing

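In Kitl overexpression the number of members called was 2 at an adjusted p of 0.01, 4 with every gene that had a count, and 5 with limma on log2(TPM + 1). It ranged from 5 to 15 as single libraries were left out, with 15 without Egfp_OE replicate 3 and 6 without Egfp_OE replicate 2. Calls over all genes fell from 5236 to 2822 at an adjusted p of 0.01 and to 2351 with spike-in scaling. In knockdown, members called were 1 with every gene that had a count, 4 with DESeq2 and 0 to 4 as single libraries were left out (3 without shCtrl replicate 1, 1 without shKitl replicate 3, 4 without Egfp_OE replicate 2). Over all genes these settings gave 23, 452 and 0 to 277 calls, and limma gave 7. Between control lines, members called were 2 with DESeq2 and 0 to 1 with single libraries left out. Over all genes there were 1 at an adjusted p of 0.01, 10 with spike-in scaling (all lower), 349 with every gene that had a count, 1553 with DESeq2, 0 with the P number as a covariate, 0 with the 2 lines alone and 0 to 771 with single libraries left out. For the difference of contrasts, members called were 5, 6 and 7 at an adjusted p of 0.01, with every gene that had a count and with the P number as a covariate, and 8 to 20 with single libraries left out. Over all genes there were 818 at an adjusted p of 0.01, 919 with spike-in scaling, 1291 with limma and 1245 to 2842 with single libraries left out. The cause of these shifts was not tested.

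Signs also turned. With single libraries left out, log2 fold changes in Kitl overexpression ranged from -2.03 to 0.12 for H2-D1, -0.81 to 0.39 for H2-T22, -0.14 to 0.35 for H2-T24, -0.93 to 0.48 for B2m, -1.38 to 0.040 for Tapbp, -0.52 to 0.18 for H2-DMa and -0.25 to 0.59 for H2-DMb1. H2-DMa was 0.10 with the P number as a covariate. H2-T24 ranged from -0.12 to 0.10 in knockdown and from -0.10 to 0.36 in the difference, where H2-DMb1 ranged from -1.21 to 0.0056 and was 0.093 with the P number. Between control lines the ranges were -0.89 to 2.10 for H2-K1, -0.74 to 1.497 for H2-D1, -0.16 to 2.47 for H2-Q4, -0.43 to 2.82 for H2-Q6, -0.15 to 1.16 for H2-T22, -1.58 to 1.83 for H2-T23, -0.12 to 1.38 for B2m, -0.18 to 1.79 for Tap1, -0.53 to 1.25 for Tap2, -1.30 to 2.82 for Psmb8, -0.65 to 3.02 for Psmb9, -0.47 to 1.90 for Psmb10, -0.14 to 1.33 for Psme1, -0.23 to 1.53 for Psme2 and -0.77 to 0.33 for Nlrc5. The negative ends were those without Egfp_OE replicate 2, except for Nlrc5. With spike-in scaling the control lines gave -0.12 for H2-D1, -0.10 for H2-T22, -0.40 for H2-T23, -0.28 for H2-T24, -0.11 for Tap1, -0.42 for Tap2, -0.075 for Tapbpl and -0.24 for Erap1. There, limma gave -0.16 for H2-T23 and the P number as a covariate gave 0.81 for Nlrc5. In the replicate block fit, members called were 0 in knockdown and 9 in overexpression, Psme2 being lost at an edgeR adjusted p of 0.0857, and 13 in the difference, Psmb10 being lost at 0.0517. The block left 82 genes called between control lines. Each Kitl_OE library correlated best with the Egfp_OE library of its own number, but weakly, at 0.0262, 0.204 and 0.169. For Kitl_OE replicate 1 the next value was -0.00167. In knockdown not every library correlated best with its own number, and the design gives no pairing.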
